A study of Mus musculus with 9 samples.

Results

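Kdr, Pdgfrb, Cdh5, Vcam1 and Sox18 are 5 genes of blood vessels, 4 of the endothelium and 1 of pericytes. They were followed by gene name through 3 comparisons of gene expression in mouse embryonic cortex, in which 1030 distinct genes were listed in all. All 5 were listed once, as higher in cHet than in cKO cortex, and none was listed against WT. RNA sequencing was made from the cortices of 9 embryos at embryonic day 12, 3 per genotype, from 2 litters. Each embryo carried 1 Emx1 allele with Cre recombinase (Emx1 Cre/+). The WT embryos had Zbtb7a +/+, the conditional heterozygotes (cHet) Zbtb7a fl/+ and the conditional knockouts (cKO) Zbtb7a fl/fl, so the WT controls carry Cre as well. Zbtb7a encodes a zinc finger transcription factor. Cre at Emx1 acts in progenitors of the dorsal telencephalon and their descendants, whereas the endothelium of brain vessels derives from mesoderm, outside that lineage. Litters are not assigned to embryos in the labels.

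Vessels enter the embryonic cortex from a plexus at its surface. Endothelial cells respond to VEGF ligands through the receptor encoded by Kdr, adhere to each other through the VE-cadherin encoded by Cdh5, and recruit pericytes by secreting PDGF-B, which pericytes sense through the receptor encoded by Pdgfrb. Sox18 is a SoxF transcription factor of endothelium, and Vcam1 is an adhesion molecule that binds integrins on leukocytes and is also found on neural stem cells.

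The 4 promoters shown are those of listed endothelial genes that the sequence table held, shown to set the start region of Kdr beside those of 3 genes that were higher in the same comparison. Each runs from 250 bases before to 50 bases after the RefSeq start (GRCm38.p6), 5′ to 3′ on the gene's strand, with every GGAA or its reverse complement TTCC in capitals. GGAA is the core that ETS transcription factors, a family active in endothelium, bind. Of the 5 genes, 1 matched the table, and Cdh5, Sox18, Pdgfrb and Vcam1 are named only.
Kdr: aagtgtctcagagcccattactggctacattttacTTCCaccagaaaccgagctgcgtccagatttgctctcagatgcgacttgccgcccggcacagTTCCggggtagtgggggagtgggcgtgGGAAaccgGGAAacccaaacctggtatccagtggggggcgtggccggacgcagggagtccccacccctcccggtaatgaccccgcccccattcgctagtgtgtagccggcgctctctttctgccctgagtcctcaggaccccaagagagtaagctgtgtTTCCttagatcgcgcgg
Tie1: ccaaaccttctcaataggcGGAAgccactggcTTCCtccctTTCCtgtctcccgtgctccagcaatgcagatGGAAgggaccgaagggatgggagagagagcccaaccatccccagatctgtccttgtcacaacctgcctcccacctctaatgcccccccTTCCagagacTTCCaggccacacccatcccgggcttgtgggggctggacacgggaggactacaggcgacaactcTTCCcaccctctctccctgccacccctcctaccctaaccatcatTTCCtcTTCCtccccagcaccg
Robo4: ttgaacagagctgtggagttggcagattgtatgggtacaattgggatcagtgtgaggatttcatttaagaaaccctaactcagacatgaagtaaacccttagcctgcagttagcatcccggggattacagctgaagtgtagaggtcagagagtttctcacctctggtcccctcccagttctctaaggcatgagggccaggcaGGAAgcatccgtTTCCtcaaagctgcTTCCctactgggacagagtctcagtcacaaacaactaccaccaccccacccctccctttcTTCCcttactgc
Eng: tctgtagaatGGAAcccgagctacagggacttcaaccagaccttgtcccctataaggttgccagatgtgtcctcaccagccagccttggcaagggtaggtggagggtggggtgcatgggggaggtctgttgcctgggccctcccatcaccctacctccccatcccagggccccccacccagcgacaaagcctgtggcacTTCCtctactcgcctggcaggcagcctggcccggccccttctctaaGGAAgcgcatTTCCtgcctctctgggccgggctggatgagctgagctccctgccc

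The windows are chr5:75978406-75978705 (minus strand) for Kdr, chr4:118489800-118490099 (minus strand) for Tie1, chr9:37401722-37402021 (plus strand) for Robo4 and chr2:32646345-32646644 (plus strand) for Eng. The GGAA core occurred 5 times in Kdr, 9 times in Tie1, 4 times in Robo4 and 4 times in Eng, counting both strands. Of all 32851 promoters in the table, 96.0% held it, with a median of 3 matches, so a match by itself sets these windows apart from few others. The Kdr window also held 2 matches to the GC box, searched as GGGCGG, which was in 35.7% of all promoters and in none of the other 3 windows. It further held 2 matches to GACCC, letters reported for the human ZBTB7A protein, which were in 43.9% of all promoters and in none of the other 3 windows. A SOX motif searched as ACAAAG matched 1 time in Eng and in none of the others, beside 18.7% of all promoters. The letters GATAA, which erythroid and endothelial zinc finger factors bind, were in none of the 4 windows and in 25.4% of all promoters. The searched motifs are short, both strands were read, and a match describes letters only.

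The comparison of cHet with cKO sets cortices with 1 floxed Zbtb7a allele against cortices with 2. The deposited tables hold only genes with an adjusted p under 0.05 from DESeq2, run by the authors. All 5 genes were listed as higher in cHet, beside 7.26% of 13375 genes listed in either direction and 3.12% listed as higher. The 5 genes were chosen by these calls, so their values in this comparison are a description and nothing is read from the count. Single libraries could not be analysed from these tables, and the error given is the SE of the log2 change, with 3 libraries per group. In bulk tissue, fewer cells of a type and less RNA per cell cannot be told apart.

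Of the 2 receptors, Kdr had a log2 change of 0.93 (SE 0.24) per the authors' deposited table, a 1.90-fold higher level in cHet with a 95% interval of 1.38 to 2.62. Pdgfrb had 0.69 (SE 0.18) per the authors' deposited table, a 1.61-fold higher level (1.27 to 2.05). The endothelial receptor thus had the larger estimate and the pericyte receptor the smaller error. The authors' deposited table gave DESeq2 adjusted p-values of 0.0098 for Kdr and 0.010 for Pdgfrb, the lowest of the 5, at ranks 128 and 135 of the 971 listed genes.

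Of the 2 adhesion genes, Cdh5 had the largest estimate of the 5, a log2 change of 1.11 (SE 0.30) per the authors' deposited table, or 2.16-fold (1.43 to 3.26). It ranked 8 by size among the 417 genes listed as higher, and its adjusted p per the authors' deposited table was 0.017. Vcam1 had the smallest estimate, 0.47 (SE 0.16) per the authors' deposited table, or 1.39-fold (1.11 to 1.72), at rank 250 of 417 by size. Its adjusted p of 0.0485 in the authors' deposited table lay just inside the listing threshold, at rank 924 of 971. Values just outside the threshold were not analysed here. The transcription factor gene Sox18 had 0.88 (SE 0.25) per the authors' deposited table, or 1.83-fold (1.31 to 2.58), with an adjusted p of 0.022.

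In order of size the genes were Cdh5, Kdr, Sox18, Pdgfrb and Vcam1. The 95% intervals overlapped in all 10 pairs of genes, Cdh5 and Vcam1 included, so the order is not separated by the errors. All 5 estimates come from the same 6 libraries.

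**Figure D1:**
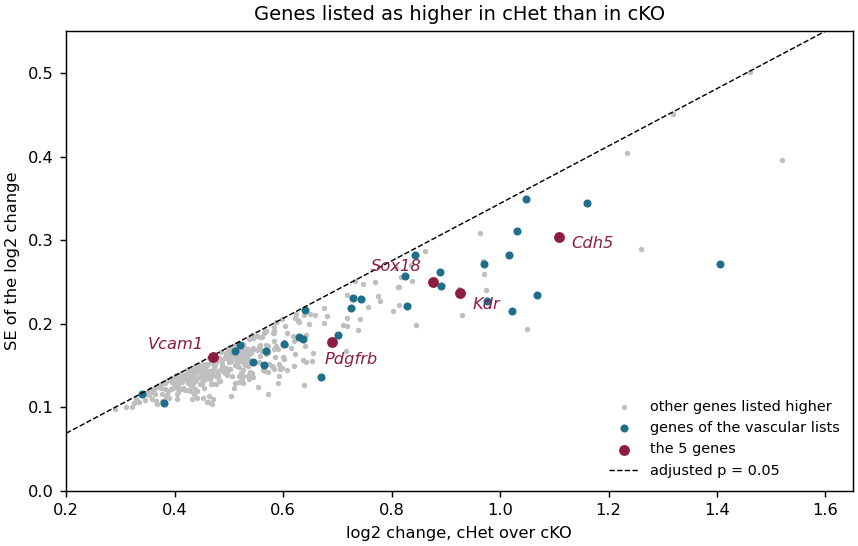
Log2 change of cHet over cKO (horizontal axis) against its SE (vertical axis) for the 417 genes listed as higher in cHet, from the authors' deposited table. Points to the right of the dashed line pass an adjusted p of 0.05; Vcam1 lies next to the line, while Cdh5, Kdr and Sox18 lie to the right of the bulk of genes, and the larger changes carry larger SEs.

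Against WT, none of the 5 genes was listed in either comparison. For cHet against WT, 1.60% of 15465 genes were listed, and for cKO against WT 0.0148% of 26976. The tables give no value for an unlisted gene, and counts at an unadjusted p were not analysed here. What each comparison could have listed was therefore computed from the authors' adjustment. A further gene needed an absolute statistic of 3.35 for cHet against WT and 4.43 for cKO against WT, compared with 2.91 for cHet against cKO.

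Each gene's SE from cHet against cKO was used for the comparisons with WT. In the 190 genes listed in both tables that contain cHet, the ratio of the 2 deposited SEs was between 0.992 and 1.01. In the 3 genes listed in both tables that contain cKO it was between 1.00 and 1.01. With these SEs, cHet against WT would have listed Kdr from a log2 change of 0.79, Cdh5 from 1.02, Sox18 from 0.84, Pdgfrb from 0.60 and Vcam1 from 0.54. An estimate as large as that between cHet and cKO would thus have been listed against WT for 4 of the 5 genes, and not for Vcam1. Each of those 4 estimates passed its limit by less than its SE, and the genes were chosen by these estimates. Absence from cHet against WT is therefore not a sign that these genes were at WT level in cHet. The stricter limits for cKO against WT were 1.05 for Kdr, 1.35 for Cdh5, 1.11 for Sox18, 0.79 for Pdgfrb and 0.71 for Vcam1. A change of the size seen between cHet and cKO would have been listed there for 0 of the 5 genes. Absence from the table of cKO against WT is therefore not a sign that these genes were at WT level in cKO.

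**Figure D2:**
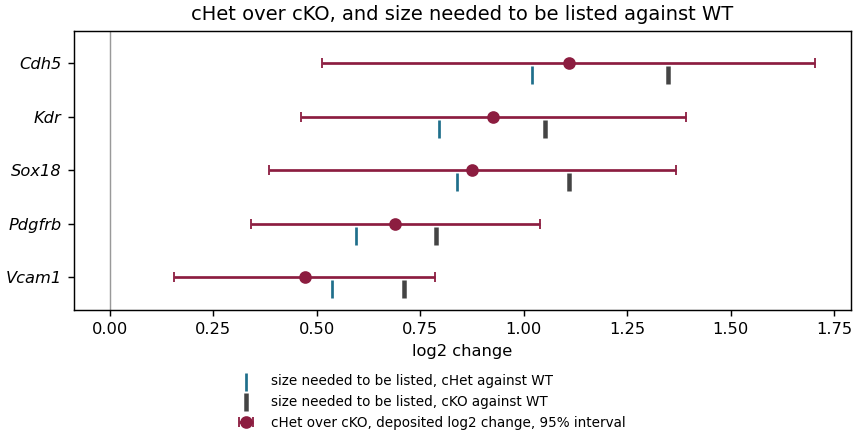
Deposited log2 change of cHet over cKO (points, with 95% intervals) and the log2 size each gene would have needed to be listed in cHet against WT (thin ticks) and in cKO against WT (thick ticks). The points of Kdr, Cdh5, Sox18 and Pdgfrb lie between their 2 ticks, and the point of Vcam1 lies below both.

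The limits and the difference between cHet and cKO together bound the change of cKO over WT. This holds if each gene entered all 3 tests and if the 3 log2 changes add up, which was not tested. The log2 change of cKO over WT would then lie between -1.05 and -0.13 for Kdr, -1.35 and -0.09 for Cdh5, -1.11 and -0.04 for Sox18, and -0.79 and -0.09 for Pdgfrb. For Vcam1 the range was -0.71 to 0.07 and included 0. The matching ranges for cHet over WT were -0.13 to 0.79 for Kdr, -0.24 to 1.02 for Cdh5, -0.23 to 0.84 for Sox18, -0.10 to 0.60 for Pdgfrb and -0.24 to 0.54 for Vcam1. All 5 include 0. These are ranges of the fitted estimate and carry no sampling error. They are built from the estimates by which the genes were chosen, and where a range for cKO over WT leaves out 0 it does so by less than the gene's SE, so they do not show that cKO was below WT.

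Other endothelial genes were listed with them. The gene lists used from here on were chosen with earlier results of these data known, so their shares are a description. Of 47 genes on an endothelial list, 11 (23.4%) were higher in cHet than in cKO and none was lower, beside 3.12% higher and 4.14% lower over all genes in the adjustment. Without Kdr, Cdh5, Sox18 and Vcam1 it was 7 of 43 (16.3%), all higher. The receptors among them were Robo4, a roundabout receptor of endothelium, at 1.16 (SE 0.34), and Cd93, a C-type lectin-like receptor, at 1.05 (SE 0.35) per the authors' deposited table. Tie1, a receptor of the angiopoietin system, had 0.84 (SE 0.28) and Eng, a TGF-beta co-receptor, 0.89 (SE 0.26) per the authors' deposited table. Sox7, a SoxF factor like Sox18, had 1.03 (SE 0.31) per the authors' deposited table, and the third SoxF gene, Sox17, was not listed. Vwf, which encodes a clotting factor stored in endothelium, had 0.97 (SE 0.27) and Plvap, a protein of fenestrated vessels, 0.74 (SE 0.23) per the authors' deposited table. The 11 estimates lay between 0.47 and 1.16, and their adjusted p-values in the authors' deposited table between 0.0098 and 0.0485.

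Not every endothelial marker was listed. Of 13 defining endothelial markers, 4 were listed, all higher (Cdh5, Kdr, Tie1 and Sox18), and Pecam1, Flt1, Tek, Emcn, Esam, Cldn5, Erg, Sox17 and Egfl7 were not. The SEs of the unlisted markers are not known, so no single limit holds for them. The 11 listed endothelial genes had SEs between 0.16 and 0.35. At their median of 0.27, a log2 change of up to 0.79 would have gone unlisted, and the limit moves with the SE. The unlisted markers may thus differ without being called. For the same reason, sizes of listed genes are not compared between lists, since a gene with a larger SE is listed only at a larger change. In neither comparison with WT was any gene of the endothelial list listed.

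Among 20 pericyte genes, 3 (15.0%) were higher and none lower, beside 3.12% higher over all genes in the adjustment. Without Pdgfrb, chosen by its call here, it was 2 of 19 (10.5%). Those 2 were Vtn, which encodes vitronectin, at 0.89 (SE 0.25), and Tbx18, a transcription factor of mural cells, at 0.73 (SE 0.23) per the authors' deposited table. Of 8 defining pericyte markers, Pdgfrb and Vtn were listed, and Cspg4, Rgs5, Anpep, Kcnj8, Abcc9 and Notch3 were not. No pericyte gene was listed against WT.

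In the VEGF pathway, 4 of 32 genes (12.5%) were higher and none lower, with Kdr, chosen by its call here, included. Over all genes in the adjustment, 3.12% were higher and 4.14% lower. The ligand gene Vegfc, best known for lymphatic vessels, had 0.55 (SE 0.15) and the kinase gene Src 0.38 (SE 0.11) per the authors' deposited table. The focal adhesion adaptor gene Pxn had 0.56 (SE 0.15) per the authors' deposited table. Vegfa, the main ligand of the Kdr receptor, and the receptor genes Flt1, Flt4, Nrp1 and Nrp2 were not listed. In the PDGF pathway, 1 of 16 genes (6.25%) was higher, Pdgfrb, chosen by its call here, and 1 (6.25%) was lower. With 1 gene in each direction, nothing is read from these shares. Pdgfd, which encodes a ligand of the Pdgfrb receptor, was lower in cHet with a log2 change of -1.18 (SE 0.36) per the authors' deposited table, beside Pdgfrb at 0.69. Pdgfb, the endothelial ligand gene, was not listed.

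Of 17 Notch and SoxF genes of vessels, 2 (11.8%) were higher (Sox7 and Sox18) and none lower. Sox18 was chosen by its call here. No Notch ligand, receptor or target of that list was listed. The shares over all genes in the adjustment were 3.12% higher and 4.14% lower. Of 22 genes of angiopoietin, TGF-beta and BMP signalling, 4 (18.2%) were higher and none lower. Beside Tie1 and Eng they were the ligand gene Tgfb2 at 0.60 (SE 0.18) and Smad6, an inhibitor of BMP signalling, at 0.57 (SE 0.17) per the authors' deposited table. Of 16 genes of the Wnt7 pathway of brain vessels, 3 (18.8%) were higher. They were the co-receptor gene Adgra2, named Gpr124 there, at 0.83 (SE 0.26), and the nuclear effector genes Lef1 at 0.67 (SE 0.14) and Tcf7 at 0.64 (SE 0.22) per the authors' deposited table. Lef1 was also higher in cHet than in WT, at 0.54 (SE 0.13) per the authors' deposited table. Whether vessel cells gave the Lef1 and Tcf7 values was not tested.

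The 18 junction genes around VE-cadherin were mixed, with 4 (22.2%) higher and 2 (11.1%) lower. Cdh5, among the higher ones, was chosen by its call here. Among all genes in the adjustment, 3.12% were higher and 4.14% lower. The catenin genes Ctnna1 at 0.52 (SE 0.17) and Ctnnd1 at 0.51 (SE 0.17) were higher in the authors' deposited table, and each encodes a protein that binds cadherin complexes in many cell types. Arhgap35, a GTPase-activating protein, had 0.34 (SE 0.12) per the authors' deposited table. Jam2, a junctional adhesion molecule, had -0.39 (SE 0.12) and the small GTPase gene Rap1b -0.79 (SE 0.24) per the authors' deposited table. Of 16 genes around VCAM1, 2 (12.5%) were higher and none lower. They were Vcam1, chosen by its call here, and Rela, an NF-kB subunit known to activate Vcam1 transcription. Rela had 0.70 (SE 0.19) per the authors' deposited table. The integrin genes Itga4, Itgb1 and Itgb7, whose products bind VCAM1, were not listed.

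Of the 10 vascular lists, the share listed as higher was highest for the vessel wall matrix, where 9 of 18 (50%) were higher and none lower. Over all genes in the adjustment, 3.12% were higher and 4.14% lower. Since the lists were chosen with earlier results known, their order by share is a description only. Which cells gave the matrix values was not tested, and the listed genes of meninges and mesenchyme, given below, were all higher as well. Col15a1, a collagen of basement membrane zones, had 1.41 (SE 0.27) per the authors' deposited table. The laminin gene Lama4 had 1.02 (SE 0.21), Lamb1 0.63 (SE 0.18), and the endothelial glycoprotein gene Mmrn1 1.02 (SE 0.28) per the authors' deposited table. Col4a1 had 0.98 (SE 0.23), Col4a2 1.07 (SE 0.23), Col18a1 0.64 (SE 0.18), Nid1 0.73 (SE 0.22) and Nid2 0.83 (SE 0.22) per the authors' deposited table. Over the 10 vascular lists together, 35 of 201 distinct genes (17.4%) were higher and 3 were lower, and 30 of 196 (15.3%) were higher without the 5 genes. These lists include signalling and junction genes such as Src, Rela, Ctnna1 and Ctnnd1, so the share is not one of vessel markers alone. In cHet against WT, 1 of the 201 was listed, Lef1, and in cKO against WT none.

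**Figure D3:**
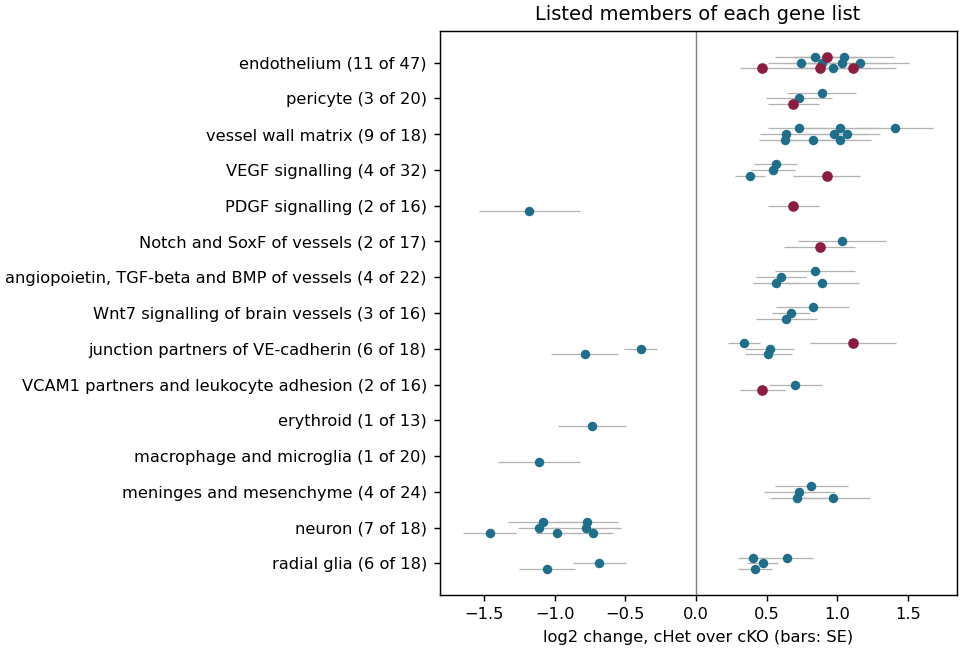
Log2 change of cHet over cKO with its SE for each listed gene of 15 gene lists, with the number listed of the number annotated in brackets. The 5 genes are in dark red. The listed genes of the endothelial, pericyte, matrix and meningeal lists all lie above 0, as do those of several signalling lists. The listed neuronal genes all lie below 0.

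Genes of other cell types were listed in the same comparison. Of 24 genes of meninges and mesenchyme, 4 (16.7%) were higher and none lower, with Col3a1 at 0.97 (SE 0.26), Bgn at 0.72 (SE 0.20), Col6a2 at 0.82 (SE 0.26) and Lum at 0.73 (SE 0.25) per the authors' deposited table. Meningeal tissue is rich in vessels and itself expresses Pdgfrb, and how much of it each dissection held was not measured. Of its 9 defining markers, Col1a1, Col1a2, Dcn, Foxc1, Pdgfra and Twist1 were not listed. Of 13 erythroid genes 1 was lower, Hbb-y at -0.74 (SE 0.24), and of 20 macrophage genes 1 was lower, Pf4 at -1.11 (SE 0.29), both per the authors' deposited table. These shares, 7.69% and 5%, are near the 4.14% of all genes listed as lower. Of 18 neuronal genes, 7 were lower and none higher, and the lowest adjusted p was that of Nsg2, with -1.46 (SE 0.19) per the authors' deposited table. Stmn2 had -1.11 (SE 0.15), Stmn3 -0.98 (SE 0.15) and Gap43 -0.73 (SE 0.14) per the authors' deposited table. Of 6 defining neuronal markers, Stmn2 and Gap43 were listed, and Tubb3, Dcx, Neurod6 and Tbr1 were not. In cHet against WT, 5 of the 18 neuronal genes were lower as well, and 6 of the 18 radial glia genes were listed, 4 higher and 2 lower. No gene of the endothelial, pericyte, matrix or meningeal lists was listed there, where 1.60% of all genes were. The listed endothelial genes had SEs between 0.16 and 0.35 in cHet against cKO. Some listed neuronal genes, Nsg2 among them, lay in that range, and others, such as Stmn2, below it. A gene with a larger SE needed a larger change to be listed, so the lists are not compared in this. The 2 comparisons share the cHet libraries. Of 18 radial glia genes 4 were higher, among them Lhx2 at 0.47 (SE 0.11), Emx2 at 0.40 (SE 0.11), Emx1 at 0.42 (SE 0.12) and Sox3 at 0.64 (SE 0.19), and 2 were lower, Fabp7 at -1.05 (SE 0.20) and Ednrb at -0.69 (SE 0.19), all per the authors' deposited table. Of 8 defining radial glia markers, Emx2, Emx1 and Fabp7 were listed, and Pax6, Sox2, Nes, Vim and Hes5 were not. The part of any of these cell types in the vessel gene values was not tested.

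Exonic length moved with direction in cHet against cKO. The median merged exonic length was 5575.5 bp for the 416 coding genes listed as higher and 3060.5 bp for the 482 listed as lower, against 3488 bp over all annotated coding genes. Kdr (9030 bp), Vcam1 (8870 bp) and Pdgfrb (5478 bp) are longer than 90.6%, 90.2% and 72.4% of coding genes. Cdh5 (4203 bp) is longer than 59.4%, and Sox18 (1620 bp) than 19.1%, so Sox18 is a short gene among the higher ones. The 11 listed endothelial genes had a median of 4917 bp, compared with 4360 bp for all 47 on the list. For the vessel wall matrix the medians were longer, 6943 bp for the 9 listed genes and 7242.5 bp for all 18. For pericytes they were 4718 bp for the 3 listed genes and 3944.5 bp for all 20. Between 1620 and 9030 bp, the range of the 5 genes, 357 coding genes were listed as higher and 346 as lower. The part of length in these values was not tested.

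**Figure D4:**
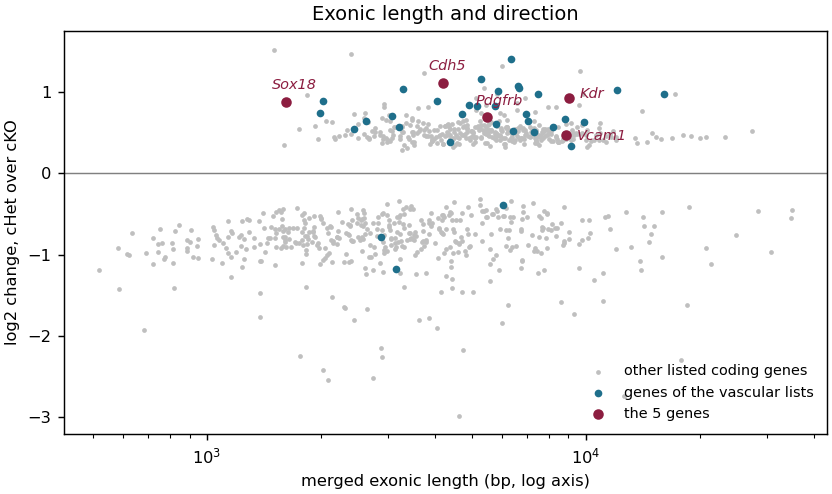
Merged exonic length (log axis) against log2 change of cHet over cKO for the listed coding genes, leaving out 9 of 898 with an absolute log2 change above 3. The 5 genes span the lengths of the listed genes from 1620 to 9030 bp, with Sox18 at the short end and Kdr and Vcam1 at the long end.

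The 5 genes lie on 5 chromosomes (mm10, GENCODE M21). Kdr (ENSMUSG00000062960) spans 75932827 to 75978458 on the minus strand of chromosome 5 in 29 merged exons, and Cdh5 (ENSMUSG00000031871) spans 104101625 to 104144511 on the plus strand of chromosome 8 in 13. Sox18 (ENSMUSG00000046470) spans 181669836 to 181671640 on the minus strand of chromosome 2 in 2 merged exons. Pdgfrb (ENSMUSG00000024620) lies on chromosome 18 from 61045150 to 61085061 with 24 merged exons, and Vcam1 (ENSMUSG00000027962) on chromosome 3 from 116109949 to 116129688 with 10. None is on chromosome 10, which carries Zbtb7a. Antisense genes overlap Cdh5 (Gm29682) and Vcam1 (Gm43109), neither was listed, and without stated strand counting their reads cannot be told apart from those of the sense gene. No transcript of another gene matched any of the 5 at 95% identity or more over 300 bp.

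The nearest gene on the same chromosome listed for cHet against cKO was 0.0142 Mb away for Sox18, the splicing factor gene Prpf6 at 0.53 (SE 0.17) per the authors' deposited table. For Pdgfrb it was Tcof1, a gene of ribosome biogenesis, 0.196 Mb away, at 0.64 (SE 0.16) per the authors' deposited table. The nearest listed genes to the other three went the other way. They were Gsx2, a ventral telencephalic factor 0.855 Mb from Kdr, at -5.55 (SE 1.51), Fam96b 0.495 Mb from Cdh5 at -0.82 (SE 0.24), and Tmem56 5.07 Mb from Vcam1 at -0.80 (SE 0.26) per the authors' deposited table.

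The genes most like the 5 in this comparison, by distance to their median log2 change and median SE over 1 comparison, were Vtn, Cd109, Cables1, Anxa6 and Tenc1. Vtn is also on the pericyte list. In the authors' deposited table, Cd109 had 0.92 (SE 0.24), Cables1 0.81 (SE 0.24), Anxa6 0.81 (SE 0.24) and Tenc1 0.84 (SE 0.25).

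Zbtb7a itself was listed in none of the 3 comparisons, so the genotype labels are not checked by its level here. Eif2s3y, on chromosome Y, was listed as lower in cHet against both other groups, with -24.80 (SE 3.91) against WT and -23.04 (SE 3.91) against cKO in the authors' deposited table. Counts were not analysed here, so these values are not read as measured fold changes. The labels give neither sex nor the litter of each embryo, and a difference in either cannot be told apart from genotype.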

How the data were processed

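Polyadenylated RNA from 9 embryonic cortices, 3 per genotype, was sequenced. Cutadapt trimming, featureCounts counting on mm10 and DESeq2 testing were done by the authors, per the submitters' processing notes, whose versions are not given here. The authors' deposited tables give, per the file headers, a log fold change (taken as log2, DESeq2's base), its SE, the Wald statistic and the adjusted p-value. That deposited statistic is a score equal to the log2 change over its SE. Each sign was read as first-named over second-named group and matched the direction word in every row. Counts per library were not analysed here: depth is unknown, and the planned count tests, leave-one-out fits and normalization alternatives were not run. The labels name separate animals.

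The number of genes in each adjustment was recovered from the deposited p-values and statistics by Benjamini-Hochberg, and gave back every deposited adjusted p to within a relative difference of 5.91e-13. The members and the 15 gene lists (10 vascular, 5 of other cell types) were chosen with earlier results of these data known. Lists were matched by Ensembl identifier through GENCODE M21, and their shares are of annotated members, not of members tested; 1 gene is not reported here. Named genes were the 5 members, every listed gene of the vascular lists (more than the 4 that the rule asked for where over 8 were listed), up to 4 per direction of the other cell type lists, the 5 nearest in log2 change and SE, and the nearest listed neighbours. Intervals are 95% normal intervals of the deposited log2 change. Alternatives were an adjusted p of 0.01, minimum log2 changes of 0.5 and 1, Bonferroni adjustment, other SEs and an endothelial list without shared genes. Sequences are from RefSeq (GRCm38.p6). Calculations were made with SciPy 1.17.1, NumPy 2.4.6 and pandas 2.3.3 in Python 3.11.15, plots with matplotlib 3.10.9 and alignments with BLAST 2.17.0.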

Additional observations from a re-analysis of the deposited data

How the results depend on the processing

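Requiring an absolute log2 change of 0.5 left 4 of the 5 genes (Vcam1 dropped out), 10 endothelial, 3 pericyte, 9 matrix and 13 vascular signalling genes as higher in cHet than in cKO, among 214 higher and 501 lower genes in all. Stricter rules left fewer. At an adjusted p under 0.01 there remained 1 of the 5 (Kdr), 1 of 11 endothelial, 0 of 3 pericyte, 4 of 9 matrix and 2 of 14 signalling genes, among 49 higher and 84 lower genes in all. At a log2 change of at least 1 these counts were 1 (Cdh5), 4, 0, 4 and 1, among 14 higher and 152 lower genes. With Bonferroni adjustment they were 0, 0, 0, 2 and 1, among 6 higher and 38 lower. Of the 31 endothelial genes on no other list, 4 (12.9%) were higher. None of the 5 was listed against WT under any of these rules. The median log2 size needed against WT over the 5 genes was 0.79 for cHet and 1.05 for cKO. With the median SE of listed genes it became 0.54 and 2.12, and at an adjusted p of 0.01 it became 0.97 and 1.14. The 2.12 for cKO rests on a median SE of 0.48 from only 4 listed genes. No paired analysis was possible because the tables hold comparisons and no values per library; fits that leave out a replicate were not run for the same reason. Precision rests on 3 libraries per group, and depth is unknown.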

Other observations

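Further genes of vessels stood outside the lists among those listed for cHet against cKO, and were picked after their values were seen, so no count or test rests on them. Caveolae are membrane pits abundant in endothelium. Of their structural genes, both higher in cHet, Cav1 had a log2 change of 0.60 (SE 0.21) and Ptrf, which encodes cavin-1, 0.58 (SE 0.20) per the authors' deposited table. Ehd2, whose product sits at the neck of caveolae, had 0.77 (SE 0.23) per the authors' deposited table. Plxnd1, an endothelial receptor for semaphorins, had 0.65 (SE 0.20), and Cd248, a surface protein of pericytes and fibroblasts, 0.67 (SE 0.20) per the authors' deposited table. Arap3, a regulator of Arf GTPases, had 0.81 (SE 0.27) per the authors' deposited table. Not all vessel genes outside the lists were higher. Lipg, which encodes endothelial lipase, had -1.46 (SE 0.41) and Pdcd10, a gene of cerebral cavernous malformation, -0.95 (SE 0.30) per the authors' deposited table. None of these 8 genes was listed in cHet against WT.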
